A study of Arabidopsis thaliana with 12 samples.

Results

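The genes described here are the DNA methylation and RNA-directed DNA methylation (RdDM) machinery of *Arabidopsis*, a list of 43 loci. They were chosen by their known function, at a time when earlier results of these data were known. All 43 loci are among the 34133 genes and isoform models with expression values, and 42 of them were expressed at a level that could be tested. Poly-A RNA was sequenced from 10-day-old seedlings of ecotype Columbia grown on agar medium, in 4 genotypes with 3 replicates each, 12 libraries in all. The wild type carries no mutation, *brat1* carries a T-DNA insertion in *BRAT1* (AT1G05910), which encodes a bromodomain-containing ATPase of the anti-silencing pathway, *nrpe1* carries a mutation of *NRPE1*, the largest subunit of RNA polymerase V, and *brat1nrpe1* carries both after a cross. Each mutation is represented by 1 line, and the labels name no allele and do not say whether replicates came from separate plantings. The p-values below therefore measure the spread between these libraries, which may be technical.

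In plants, RdDM adds methyl groups to cytosines of transposons and repeats. Polymerase IV, recruited by SHH1 and the CLSY remodelling proteins, makes short transcripts that RDR2 copies into double strands, DCL3 cuts and HEN1 protects. The siRNAs guide AGO4 and AGO6 to transcripts of polymerase V, which depends on the DDR complex of DRD1, DMS3 and RDM1 and on SUVH2 and SUVH9, and the methyltransferase DRM2 is then brought to the site. IDN2 and its partners FDM1 and FDM2, which bind RNA, act at the polymerase V step. MET1 with VIM1 copies CG methylation, CMT3 and CMT2 work with the histone H3K9 methyltransferases KYP, SUVH5 and SUVH6, and DDM1, HDA6, MOM1 and the MORC proteins keep the marked chromatin silent. Seedlings hold dividing cells, in which these marks have to be copied. The list was divided by these roles into 12 genes of polymerase IV and siRNA production, 14 of polymerase V and targeting, 5 DNA methyltransferases, 4 genes of H3K9 methylation and 8 silencing cofactors.

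Expression is given in FPKM, fragments per kilobase of transcript scaled to the fragments mapped, so levels of different genes are compared per length. FPKM carries no read counts. From the smallest steps between the values of low genes, replicate 1 of the 4 genotypes was 2.57 to 2.86 times as deep as wild-type replicate 2, and the remaining libraries were 1.13 to 1.37 times as deep. Replicate 1 also stood apart in its values. For 50.4% of the tested genes, all replicate 1 libraries lay above, or all lay below, every library of replicates 2 and 3 of any genotype. Of the 43 silencing genes, 9 were above and 11 below in this way (46.5%). The median size of the log2 difference between replicates 2 and 3 over the 42 tested genes was between 0.0908 and 0.0977 in the 4 genotypes, against 0.252 to 0.274 between replicates 1 and 2. The labelled tissue held 4 of 4 green leaf markers and 9 of 9 markers of dividing cells above 1 FPKM in every library, 3 of 4 root markers and 0 of 5 markers of flowers and seeds.

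In the wild type the machinery was expressed at moderate levels, with a median of 8.17 FPKM over the 43 genes against 10.2 FPKM over all tested genes. The highest was *AGO4* (AT2G27040), the main siRNA-binding Argonaute of the pathway, at 29.7 ± 5.95 FPKM (SD, n = 3). It was followed by *VIM1*, which binds hemimethylated DNA for MET1, at 24.9 ± 1.54 FPKM and by the polymerase V subunit gene *NRPE5* at 23.6 ± 2.79 FPKM. The *VIM1* libraries overlapped those of *AGO4* on one side and those of *NRPE5* on the other. The order within a family was wide. *AGO6* had 1.45 ± 0.0827 FPKM and *AGO9*, known for its role in ovules, had 0.160 ± 0.0171 FPKM.

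Among the genes of polymerase IV and siRNA production, the small subunit gene *NRPD4* was highest at 12.5 ± 3.97 FPKM and the largest subunit gene *NRPD1* had 2.20 ± 0.215 FPKM. The median of this group was 3.92 FPKM, beside 10.5 FPKM for polymerase V and targeting. Factors shared between polymerases, such as *RDM4*, were counted in 1 group only, and the medians depend on that placement. The 4 CLSY genes covered a range from 4.18 ± 1.11 FPKM for *CLSY1* through 0.860 ± 0.248 FPKM for *CLSY2* and 0.674 ± 0.0517 FPKM for *CLSY4* to 0.274 ± 0.0646 FPKM for *CLSY3*. *CLSY2* and *CLSY4* did not differ beyond the spread of *CLSY2*. Of the methyltransferases, *MET1* had 18.1 ± 2.37 FPKM and *CMT3* had 16.9 ± 1.23 FPKM, which overlap, and *CMT2* and *DRM2* followed at 10.99 ± 2.47 and 8.17 ± 0.783 FPKM. In the H3K9 group *IBM1*, a demethylase that protects genes from this mark, was highest at 10.4 ± 0.872 FPKM and *SUVH5* was lowest at 2.14 ± 0.366 FPKM. All cofactors were above 5 FPKM, and the lowest was *MOM1* at 5.89 ± 1.13 FPKM.

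*DRM1* (AT5G15380), the close relative of *DRM2*, was the 1 gene too low to test. It was listed at 0 in wild-type replicates 1 and 2, *brat1* replicate 2 and *brat1nrpe1* replicates 2 and 3. The wild type reached 0.0302 FPKM in replicate 3, and *brat1* had 0.0151 and 0.101 FPKM in replicates 1 and 3. The *nrpe1* libraries had 0.0322, 0.107 and 0.0727 FPKM, and *brat1nrpe1* replicate 1 had 0.0876 FPKM. The *nrpe1* libraries were the only group of the 4 with a value above 0 in every replicate, at a level where a gene holds very few reads.

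**Figure D1:**
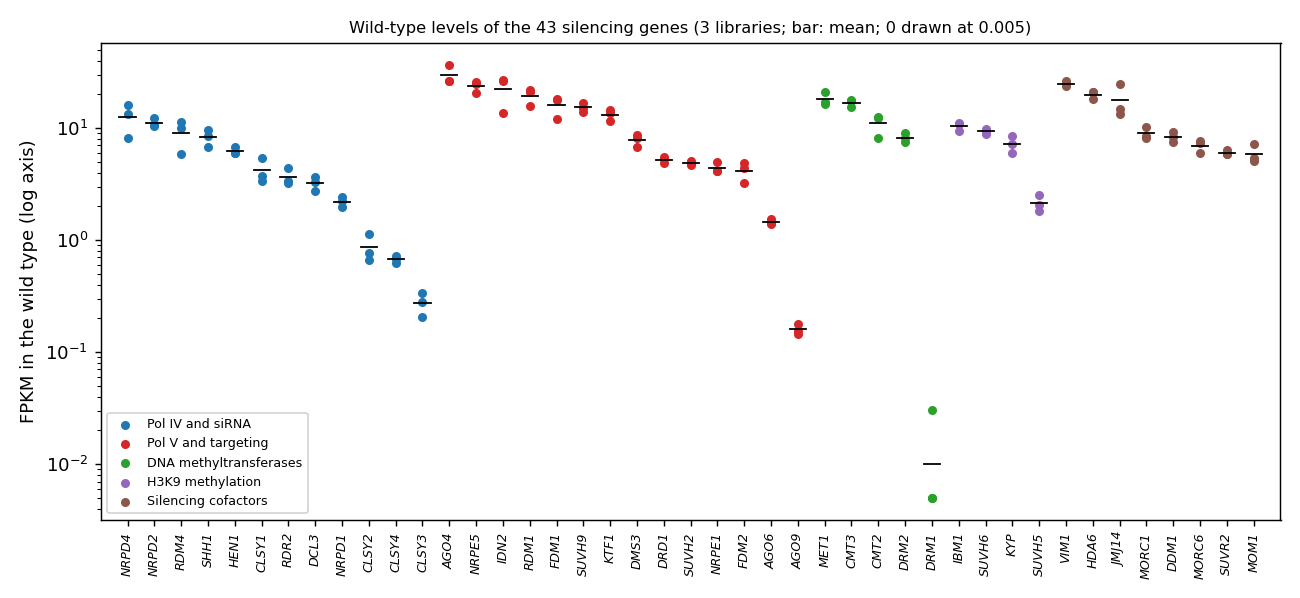
FPKM of the 43 silencing genes in the 3 wild-type libraries (points) with their mean (bar), on a log axis, grouped by role and ordered by mean; values of 0 are drawn at 0.005. *AGO4* is highest at 29.7 FPKM, and 5 genes, *CLSY2*, *CLSY4*, *CLSY3*, *AGO9* and *DRM1*, have a mean under 1 FPKM.

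The disrupted genes were examined first. *BRAT1* had 11.02, 11.43 and 11.06 FPKM in the wild type, 3.44, 2.96 and 3.15 FPKM in *brat1*, 10.8, 9.69 and 9.70 FPKM in *nrpe1*, and 3.11, 2.67 and 2.79 FPKM in *brat1nrpe1*. All 6 libraries with the *brat1* mutation were below all 6 without it, with a log2 difference of -1.78 ± 0.0953 (SE) both in *brat1* against the wild type and in *brat1nrpe1* against *nrpe1* (adjusted p = 0.000134 for each, limma). *NRPE1* (AT2G40030), at chr2:16714460-16723718 on the plus strand of TAIR10.1, had 5.01, 4.14 and 4.16 FPKM in the wild type and 5.72, 4.94 and 4.24 FPKM in *brat1*. It had 1.42, 1.32 and 1.29 FPKM in *nrpe1* and 1.10, 1.10 and 1.02 FPKM in *brat1nrpe1*. The mutants of *NRPE1* retained 30.3% of the wild-type level in *nrpe1* and 21.6% of the *brat1* level in *brat1nrpe1*, taken from the means.

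In *nrpe1* against the wild type, which asks what the loss of polymerase V does to the remaining machinery, *NRPE1* itself was the 1 silencing gene called. Its log2 difference was -1.65 ± 0.134 (SE), with an adjusted p of 0.000337 in limma, and it was lower in 3 of 3 pairs of replicates. Of the 42 tested genes, 1 had an adjusted p under 0.05, against 0.353% of all tested genes. No other silencing gene was called, which does not show that the others were unchanged. The 1 called is the gene the mutation disrupts, so its count beside the share of all genes is no result about the rest of the machinery. The same gene alone was past the limits the study used for genes (unadjusted P under 0.01 and a log2 difference over 1 in size), which 0.662% of all genes passed. It was also the 1 gene with an adjusted p under 0.05 when the replicate number was a block in the model (1.29% of all genes). The median log2 difference of the 42 genes was -0.0055, beside 0.0077 over all tested genes, and 41 of the 42 differed by less than 0.5 in size (97.6%, against 92.8% of all genes).

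In *brat1nrpe1* against *brat1*, the same mutation in the other background, *NRPE1* was again the 1 gene called. Its log2 difference was -2.10 ± 0.134 (SE; adjusted p = 8.71e-05, limma). The shares of all genes called were 0.132% by adjusted p, 0.433% by the limits of the study and 0.768% with the replicate block. *NRPE1* was the 1 silencing gene under each, and as the disrupted gene it is again no result about the rest of the machinery. The median log2 difference was -0.029 over the 42 genes and 0.0070 over all genes. The comparisons of *brat1* described further on use the same 12 libraries.

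The *NRPE1* calls of both comparisons were lost when replicate 2 or replicate 3 of every genotype was left out (adjusted p of 0.257 and 0.182 against the wild type and 0.180 and 0.112 against *brat1*, limma), and when the means of replicates 2 and 3 stood as 1 sample (0.151 and 0.116). The log2 difference lay between -1.71 and -1.21 against the wild type and between -2.21 and -1.52 against *brat1* over 25 alternatives, of which 22 kept the call in each. The *BRAT1* calls were also kept in 22 of 25.

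**Figure D2:**
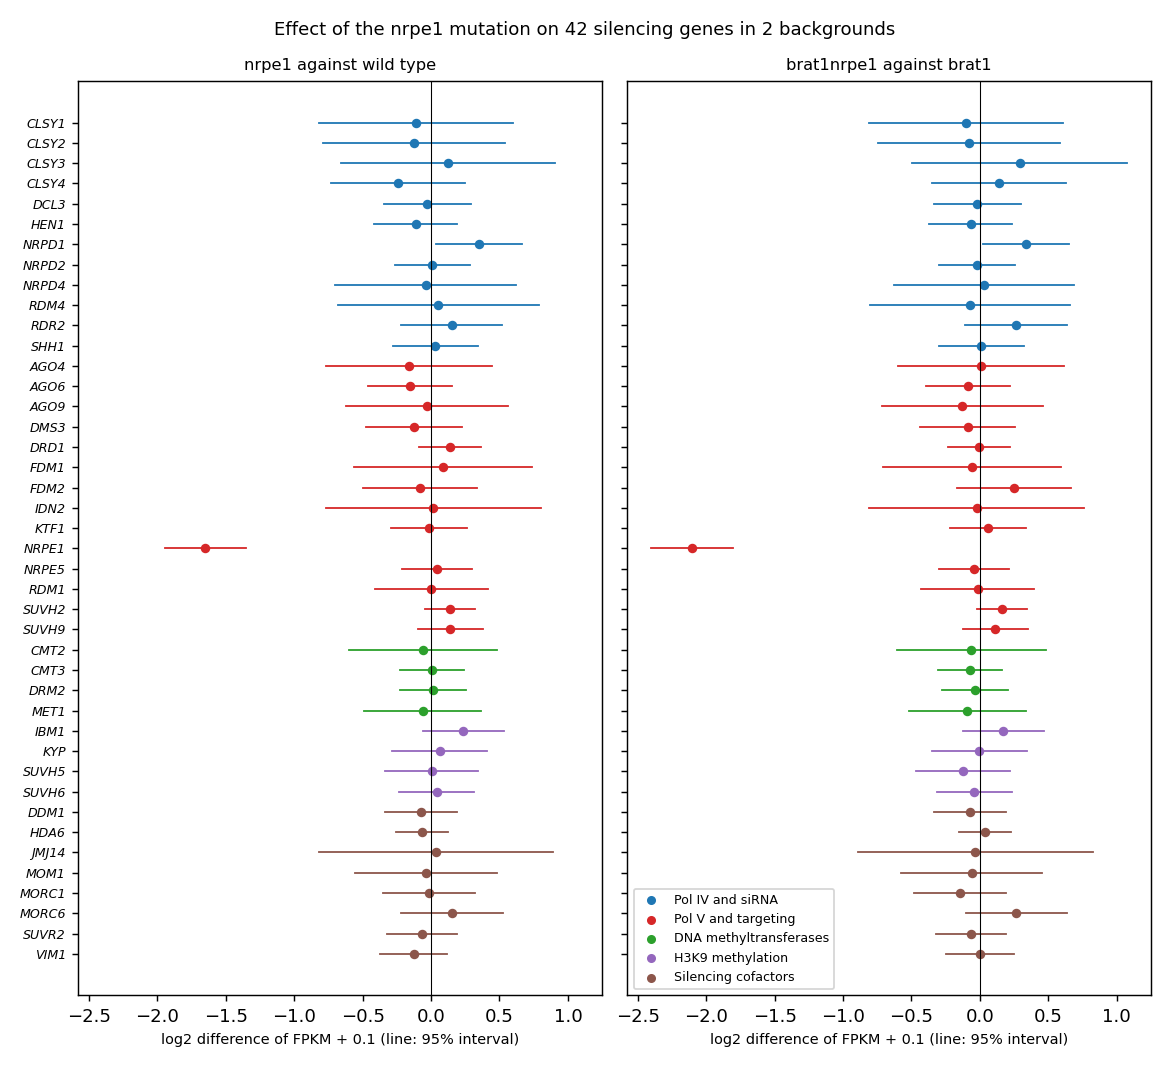
Log2 difference of FPKM + 0.1 with its 95% interval for the 42 tested silencing genes, ordered by role, in *nrpe1* against the wild type (left) and *brat1nrpe1* against *brat1* (right). *NRPE1* stands at -1.65 and -2.10, and every other gene lies between -0.5 and 0.5.

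The largest subunit gene of polymerase IV was among the genes nearest to a difference in *nrpe1*. *NRPD1* (AT1G63020) had 1.98, 2.23 and 2.40 FPKM in the wild type, 3.36, 2.36 and 2.87 FPKM in *nrpe1*, 2.58, 2.63 and 2.53 FPKM in *brat1*, and 3.61, 3.17 and 3.08 FPKM in *brat1nrpe1*. The *brat1nrpe1* libraries were all above the *brat1* libraries, and *nrpe1* replicate 2 was within the range of the wild type. The log2 difference was 0.35 ± 0.141 (SE; unadjusted p = 0.031) in *nrpe1* against the wild type and 0.33 ± 0.141 (unadjusted p = 0.039) in *brat1nrpe1* against *brat1*, and neither was below 0.05 after adjustment over all genes (1.0 in each, limma). With *NRPE1*, the disrupted gene, 2 silencing genes had an unadjusted p under 0.05 in each comparison, beside 3.04% and 2.21% of all genes.

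Groups of libraries did not overlap for 2 of the 42 genes in *nrpe1* against the wild type, the disrupted gene *NRPE1* and *SUVH2* (5.69% of all genes). In *brat1nrpe1* against *brat1* they did not overlap for 3, again *NRPE1*, with *NRPD1* and *SUVH2* (5.01% of all genes). *SUVH2* (AT2G33290), whose protein binds methylated DNA and helps recruit polymerase V, had 4.66, 4.80 and 5.13 FPKM in the wild type and 5.277, 5.597 and 5.174 FPKM in *nrpe1*. It had 4.98, 5.10 and 5.25 FPKM in *brat1* and 5.553, 5.6003 and 6.022 FPKM in *brat1nrpe1*. The log2 differences were 0.14 ± 0.0816 and 0.16 ± 0.0816 (SE), with unadjusted p-values of 0.127 and 0.0787 in limma.

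The effect of *brat1* was then compared in both backgrounds. *FDM2* (AT4G00380) was the silencing gene with the largest difference in each. It lies at chr4:167497-171010 on the plus strand of TAIR10.1 with 8 exons and a longest transcript of 2316 bases, and encodes a partner of IDN2 in RdDM. *FDM2* is a close copy of *FDM1*. Its longest transcript matched that of *FDM1* at 94.0% identity over 924 bases and at 98.4% over 184 bases, and 7.94% of its length lies in copies of at least 98% identity over 100 bases. Because uniquely mapped reads were counted, reads from such stretches may not all have been assigned. The 250 bases before the start of *FDM2* are shown because it passed the test below. CG sites, the target of *MET1*, would be in capitals, and the sequence is from RefSeq (TAIR10.1).
FDM2, chr4:167247-167496, plus strand: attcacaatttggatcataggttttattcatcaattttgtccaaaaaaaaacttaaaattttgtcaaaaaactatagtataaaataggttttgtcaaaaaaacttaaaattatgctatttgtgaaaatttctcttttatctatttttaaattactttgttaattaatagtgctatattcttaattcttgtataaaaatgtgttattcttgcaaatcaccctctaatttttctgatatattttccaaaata

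The *FDM2* window holds 0 CG sites. Over 27561 genes the median was 5, and 96.1% of windows held at least 1. Over the 43 silencing genes the median was 4, and 93.0% held at least 1. A CG site in a window says nothing of whether it was methylated, which was not measured in these libraries.

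*FDM2* had 3.23, 4.83 and 4.44 FPKM in the wild type and 1.19, 1.27 and 1.80 FPKM in *brat1*. It had 3.58, 4.18 and 3.92 FPKM in *nrpe1* and 1.68, 1.81 and 1.57 FPKM in *brat1nrpe1*. All 6 libraries with the *brat1* mutation were below all 6 without it. The level in *brat1* was 34.0% of that in the wild type, and the level in *brat1nrpe1* was 43.2% of that in *nrpe1*. *FDM2* fell in *brat1* against the wild type, with a log2 difference of -1.49 ± 0.186 (SE; adjusted p = 0.034, limma). It was lower in 3 of 3 pairs, which follows from the separation of the groups. In *brat1nrpe1* against *nrpe1* the log2 difference was -1.16 ± 0.186 (SE), also lower in 3 of 3 pairs. Its adjusted p was 0.060 without and 0.0053 with the replicate block (limma), and it was past the limits of the study. The effects in the 2 backgrounds differed by 0.33 on the log2 scale (95% interval -0.26 to 0.92, unadjusted p = 0.240, adjusted p = 1.0, limma), so a difference between backgrounds was not detected.

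The copy *FDM1* (AT1G15910) had 12.1, 17.9 and 18.3 FPKM in the wild type, 11.9, 19.9 and 18.9 FPKM in *brat1*, 12.01, 19.89 and 19.89 FPKM in *nrpe1*, and 11.7, 18.8 and 18.1 FPKM in *brat1nrpe1*. Replicate 1 was lowest in each genotype, and the genotypes overlapped. The log2 difference of *FDM1* was 0.06 (95% interval -0.59 to 0.71) in *brat1* against the wild type and -0.09 (-0.74 to 0.56) in *brat1nrpe1* against *nrpe1*. *IDN2* (AT3G48670), which forms a complex with both proteins, had 13.7, 26.4 and 27.0 FPKM in the wild type and 14.7, 25.4 and 25.5 FPKM in *brat1*, with a log2 difference of -0.01 (-0.79 to 0.78). Replicate 1 lay below the others in all genotypes for both genes. With the replicate block, the standard error of *FDM1* in each comparison was 0.0482 in place of 0.291. The genes beside *FDM2* were *ANTR2*, 1139 bases away, at 57.7 ± 7.68 FPKM in the wild type and 55.4 ± 5.57 FPKM in *brat1*, and AT4G00390, 476 bases away, at 0.679 ± 0.179 and 0.539 ± 0.341 FPKM.

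The adjusted p of *FDM2* in *brat1* against the wild type was lost in 13 of 25 alternatives, although the log2 difference lay between -1.66 and -1.09 in all of them. It rose to 1.0 when replicate 2 or 3 was left out of every genotype or their mean stood as 1 sample, and to 0.760 in a model of the 6 libraries alone. Without 1 library it was 0.204 (wild type 2), 0.199 (wild type 3), 0.123 (*brat1* 1), 0.183 (*brat1* 2), 0.0851 (*nrpe1* 2), 0.0916 (*nrpe1* 3), 0.0721 (*brat1nrpe1* 1), 0.0925 (*brat1nrpe1* 2) and 0.0673 (*brat1nrpe1* 3). Without replicate 1 of every genotype it was 0.00295 (limma throughout). In *brat1nrpe1* against *nrpe1* the log2 difference of *FDM2* lay between -1.22 and -0.87, and 7 of 25 alternatives gave an adjusted p under 0.05. Among them were the fits without replicate 1 of every genotype (0.00366) and without wild-type replicate 1 (0.0399).

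**Figure D3:**
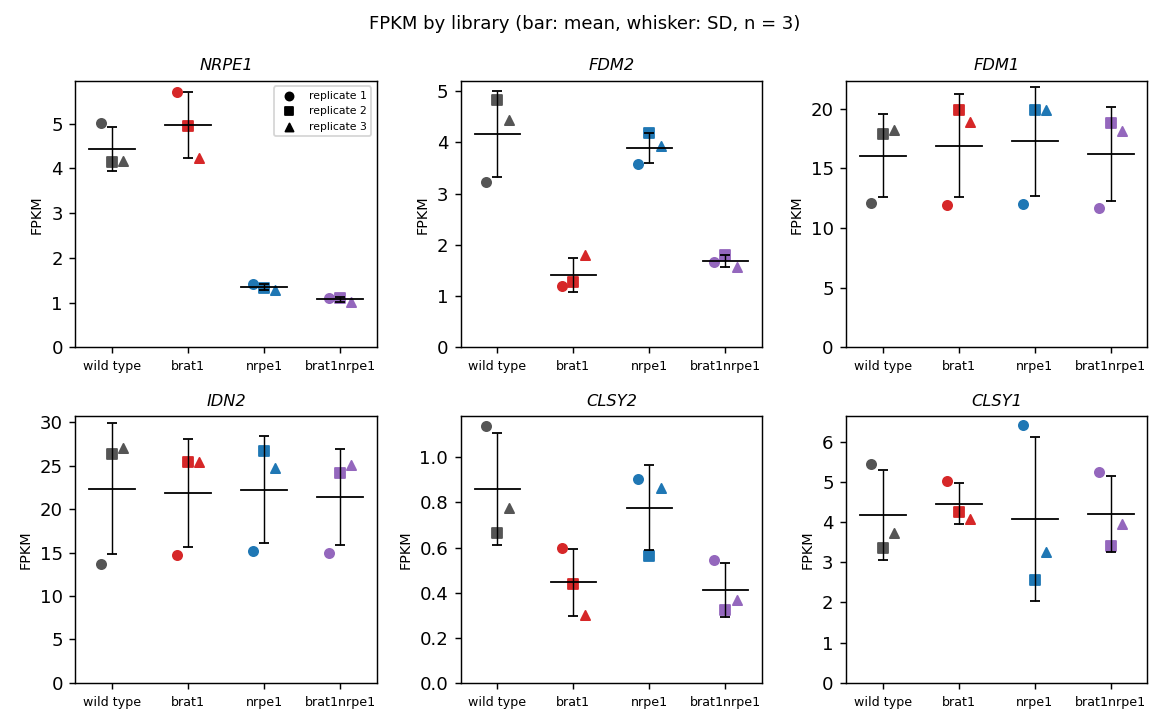
FPKM of *NRPE1*, *FDM2*, *FDM1*, *IDN2*, *CLSY2* and *CLSY1* in each of the 12 libraries, with the mean (bar) and SD (whisker, n = 3) of each genotype and a symbol for each replicate number. *FDM2* lies between 1.19 and 1.81 FPKM in the 6 libraries with the *brat1* mutation and between 3.23 and 4.83 FPKM in the 6 without it, and replicate 1 (circles) of *FDM1* and *IDN2* lies below the others in every genotype.

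Over the whole machinery few genes were called for the *brat1* mutation. The spread in the fit without the replicate block includes the difference of replicate 1, so smaller changes may have been missed. In *brat1* against the wild type, *FDM2* was the 1 of 42 genes with an adjusted p under 0.05 (0.0486% of all tested genes), the 1 past the limits of the study (0.384%) and the 1 called with the replicate block (0.843%). At an unadjusted p under 0.05 there were 2, *FDM2* and *CLSY2* (2.95% of all genes). The median log2 difference was -0.012 over the 42 genes and 0.0021 over all genes, and 40 of 42 differed by less than 0.5 in size (95.2%, against 92.8% of all genes). In *brat1nrpe1* against *nrpe1*, 0 of 42 genes had an adjusted p under 0.05 in limma (0.146% of all genes) and 3 had an unadjusted p under 0.05, *NRPE1*, *CLSY2* and *FDM2* (4.25%). *FDM2* was the 1 gene past the limits of the study (0.508%) and the 1 called with the replicate block (3.38%). The median log2 difference there was -0.034.

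**Figure D4:**
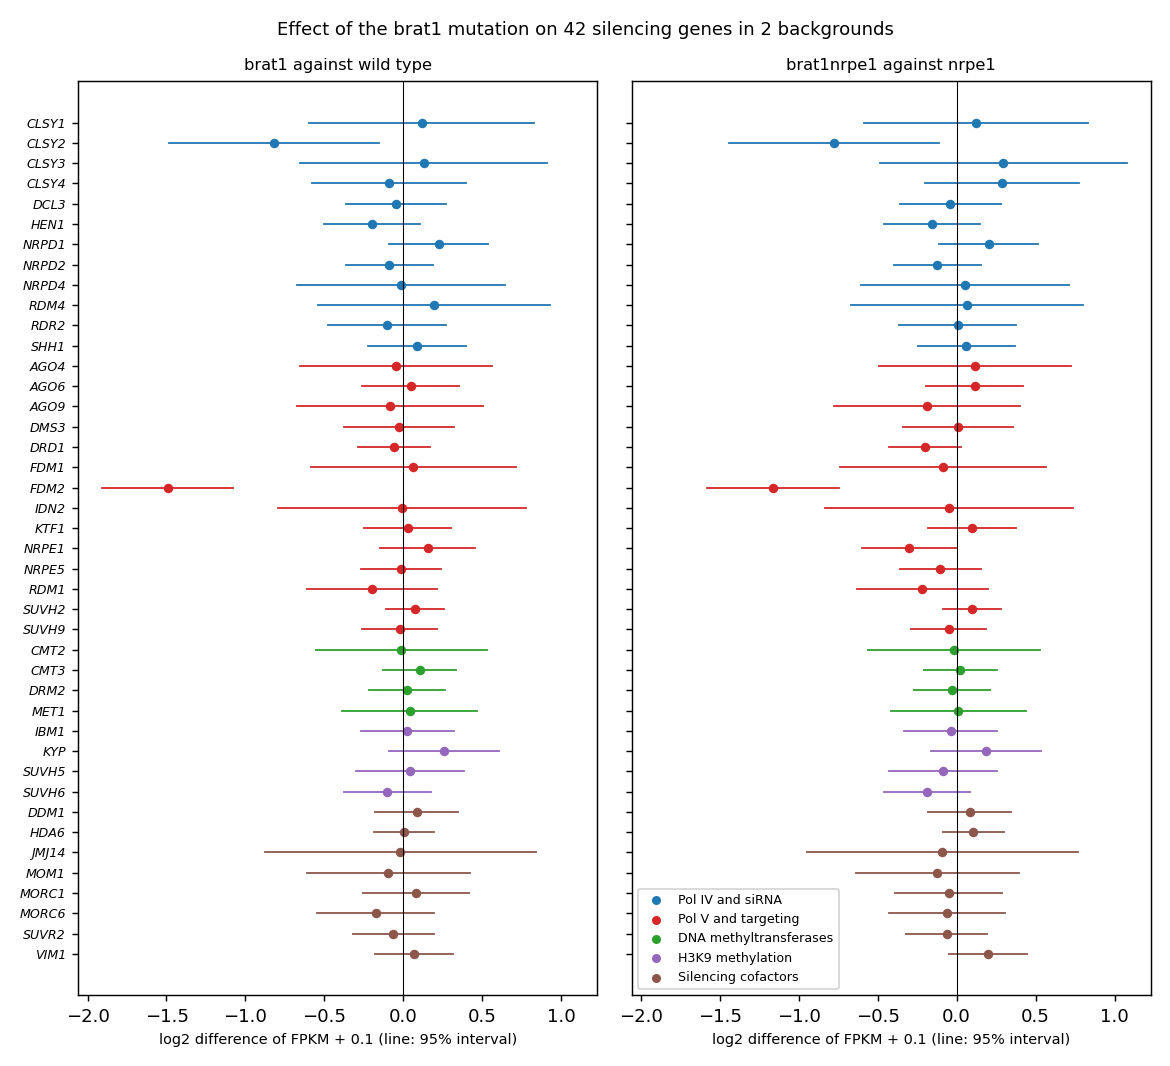
Log2 difference of FPKM + 0.1 with its 95% interval for the 42 tested silencing genes, ordered by role, in *brat1* against the wild type (left) and *brat1nrpe1* against *nrpe1* (right). *FDM2* stands at -1.49 and -1.16 and *CLSY2* at -0.82 and -0.78, and every other gene lies between -0.5 and 0.5.

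*CLSY2* (AT5G20420, chr5:6898790-6904242, minus strand) encodes a remodelling protein that acts with polymerase IV. It had 1.14, 0.665 and 0.775 FPKM in the wild type and 0.597, 0.438 and 0.302 FPKM in *brat1*. It had 0.906, 0.560 and 0.866 FPKM in *nrpe1* and 0.546, 0.324 and 0.367 FPKM in *brat1nrpe1*. The *brat1* libraries were all below the wild type, the *brat1nrpe1* libraries were all below *nrpe1*, and *brat1* replicate 1 was above *nrpe1* replicate 2. The log2 difference was -0.82 ± 0.298 (SE; unadjusted p = 0.0207) in the wild-type background and -0.78 ± 0.298 (unadjusted p = 0.0266) in *nrpe1*, lower in 3 of 3 pairs in each. After adjustment over all genes p was 1.0 in both, and 0.148 and 0.0930 with the replicate block (limma), so the difference of *CLSY2* did not pass the test.

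*CLSY1* (AT3G42670), whose longest transcript is 82.1% identical to that of *CLSY2* over 1926 bases, had 5.45, 3.36 and 3.73 FPKM in the wild type and 5.03, 4.24 and 4.08 FPKM in *brat1*. The log2 difference of *CLSY1* was 0.11 (95% interval -0.59 to 0.82). The end of *CLSY2* lies 6 bases from *MGD2* on the other strand, and reads at such a junction cannot be told apart where the counting ignores strand. *MGD2* had 8.01 ± 3.77 FPKM in the wild type and 6.05 ± 2.70 FPKM in *brat1*, and 5.99 ± 0.636 FPKM in *nrpe1* and 7.44 ± 2.98 FPKM in *brat1nrpe1*. The window before the start of *CLSY2* is shown for comparison with that of *FDM2*, with CG sites in capitals.
CLSY2, chr5:6904243-6904492, minus strand: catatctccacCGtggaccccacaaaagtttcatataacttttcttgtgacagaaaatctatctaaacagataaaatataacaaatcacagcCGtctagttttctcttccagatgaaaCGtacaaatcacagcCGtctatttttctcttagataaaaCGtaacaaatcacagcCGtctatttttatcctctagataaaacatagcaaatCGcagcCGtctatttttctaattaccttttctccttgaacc

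This window holds 8 CG sites, and 23.0% of all windows hold as many or more. The letters CAGCCGTCTA, the longest run found 4 times in the window, were looked for on both strands after the window was seen. They occur 4 times in it and in 3 of 27561 windows in all (0.0109%). They do not occur in the windows of *FDM2* and *CLSY1*. The match is a description of the sequence.

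The sum of the 5 markers of flowers and seeds, *AG*, *AP3*, *PI*, *CRA1* and *SESA1*, was higher in libraries with the *brat1* mutation. It was 0.706 to 1.77 FPKM in the wild type, 1.84 to 2.94 FPKM in *brat1*, 0.860 to 1.31 FPKM in *nrpe1* and 2.37 to 5.37 FPKM in *brat1nrpe1*. The petal and stamen identity genes *AP3* and *PI* differed most, with log2 differences of 2.24 ± 0.452 and 0.95 ± 0.245 (SE) in *brat1* against the wild type and 1.38 ± 0.452 and 1.20 ± 0.245 in *brat1nrpe1* against *nrpe1*. Their adjusted p was 0.280 and 0.691, and 0.785 and 0.189 (limma). With the replicate block it was 0.0441 and 0.154, and 0.107 and 0.0390. *AG* had log2 differences of 0.24 and 0.30, and the highest sum of *brat1nrpe1* holds 3.71 FPKM of *CRA1* in replicate 1. The defining seed marker *SESA1* was at 0 in every library but *nrpe1* replicate 1. The part of these markers in the results of *FDM2* and *CLSY2* was not tested. The sum of the 9 markers of dividing cells was between 253.8 and 302.4 FPKM over all libraries, with overlap between the genotypes. In whole seedlings, fewer cells of a type and less RNA per cell cannot be told apart.

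Groups of libraries did not overlap for 3 of the 42 genes in *brat1* against the wild type, *NRPD1*, *CLSY2* and *FDM2* (6.39% of all genes), and for 4 in *brat1nrpe1* against *nrpe1*, *NRPE1*, *CLSY2*, *DRD1* and *FDM2* (8.12% of all genes). The log2 difference of *NRPD1* was 0.22 ± 0.141 (SE; unadjusted p = 0.146, limma). *DRD1* (AT2G16390), the chromatin remodeller of the DDR complex, had 6.21, 5.72 and 5.33 FPKM in *nrpe1* and 4.72, 4.91 and 5.33 FPKM in *brat1nrpe1*. Replicate 3 of *DRD1* had the same value in both to the digits given, and the log2 difference was -0.20 ± 0.102 (SE; unadjusted p = 0.0771, limma). *NRPE1*, whose groups also did not overlap, was lower in *brat1nrpe1* than in *nrpe1*, by a log2 difference of -0.30 ± 0.134 (SE; unadjusted p = 0.0486, adjusted p = 1.0, limma), whereas in *brat1* against the wild type its log2 difference was 0.15 ± 0.134 (unadjusted p = 0.278, limma).

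Whether the effect of *brat1* differed between backgrounds was tested for each gene as an interaction. Of the 42 genes, 0 had an adjusted p under 0.05 in limma (0.0221% of all genes), 0 were past the limits of the study (0.283%) and 0 were called with the replicate block (0.053%). *NRPE1* was the 1 gene with an unadjusted p under 0.05 (1.37% of all genes), with an interaction of -0.45 ± 0.189 (SE; unadjusted p = 0.0376, adjusted p = 1.0).

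The other genes of siRNA production did not pass the test in any comparison of all libraries. *RDR2*, the RNA polymerase that copies polymerase IV transcripts, had 3.67 ± 0.649 FPKM in the wild type and 3.40 ± 0.591 FPKM in *brat1*, beside 4.06 ± 0.452 FPKM in *nrpe1* and 4.08 ± 0.456 FPKM in the double mutant (SD, n = 3). *DCL3*, the dicer of the pathway, had means between 3.07 and 3.24 FPKM in the 4 genotypes. *HEN1*, which methylates small RNAs, had 6.27 ± 0.461 FPKM in the wild type and 5.47 ± 0.712 in *brat1*, with a log2 difference of -0.20 (95% interval -0.50 to 0.11). The *HEN1* libraries of the 2 genotypes overlapped. *SHH1*, which recruits polymerase IV to H3K9 methylation, had means between 8.26 and 8.76 FPKM. Among the low CLSY genes, *CLSY3* had a log2 difference of 0.13 (-0.65 to 0.91) and *CLSY4* one of -0.09 (-0.58 to 0.40) in *brat1*.

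Around polymerase V, *AGO6* had 1.45 ± 0.0827 FPKM in the wild type and 1.51 ± 0.0893 FPKM in *brat1*, beside 1.30 ± 0.127 FPKM in *nrpe1* and 1.42 ± 0.181 FPKM in the double mutant. *DMS3*, of the DDR complex, had means between 7.19 and 7.87 FPKM. *KTF1*, which links AGO4 to polymerase V transcripts, had means between 13.0 and 13.9 FPKM, and its log2 difference was 0.03 (-0.25 to 0.30) in *brat1* and -0.01 (-0.29 to 0.26) in *nrpe1*. *SUVH9*, the partner of *SUVH2*, had 15.3 ± 1.44 FPKM in the wild type and 16.9 ± 1.55 in *nrpe1*, with overlap between the groups and a log2 difference of 0.14 (-0.10 to 0.38). Leaving aside *NRPE1*, *FDM2* and *CLSY2*, no tested gene of either polymerase group differed by 0.5 or more on the log2 scale in any of the 4 comparisons between genotypes.

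For several genes replicate 1 differed from the others by more than the genotypes differed. *JMJ14*, an H3K4 demethylase that acts in silencing, had 24.9, 13.4 and 14.7 FPKM in the wild type, 25.4, 14.3 and 12.9 FPKM in *brat1*, 26.3, 14.7 and 13.6 FPKM in *nrpe1*, and 25.0, 13.2 and 13.2 FPKM in *brat1nrpe1*. Replicate 1 was highest in all 4 genotypes, by 0.88 in the mean of log2(FPKM + 0.1). *CLSY1* and *AGO4* lay on the same side by 0.62 and 0.61. On the other side were *IDN2* at -0.80, *RDM4*, a factor shared with other polymerases, at -0.71, *FDM1* at -0.66 and *NRPD4* at -0.65. The interval of *JMJ14* in *brat1* against the wild type was -0.88 to 0.84 around a log2 difference of -0.02, and -0.15 to 0.11 with the replicate block. *HDA6*, a histone deacetylase needed for silencing of transgenes and repeats, was even over the replicates, and its log2 difference of 0.01 had an interval of -0.19 to 0.20.

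The DNA methyltransferases and the H3K9 and cofactor genes did not pass the test in any comparison of all 12 libraries. The 4 tested methyltransferase genes had log2 differences between -0.0136 and 0.103 in *brat1* and between -0.0618 and 0.0156 in *nrpe1* against the wild type. *MET1* (AT5G49160) had 20.8, 16.9 and 16.5 FPKM in the wild type, 22.5, 17.0 and 16.6 FPKM in *brat1*, 21.5, 15.3 and 15.5 FPKM in *nrpe1*, and 21.6, 15.6 and 15.5 FPKM in *brat1nrpe1*. Replicate 1 of *MET1* was highest in each genotype, by more than the genotypes differed. The interval of its log2 difference was -0.39 to 0.47 in *brat1* and -0.49 to 0.36 in *nrpe1*, and with the replicate block it was -0.07 to 0.15 and -0.17 to 0.05. *CMT3* was more even, with a log2 difference of 0.10 (95% interval -0.13 to 0.33) in *brat1* and 0.01 (-0.23 to 0.24) in *nrpe1*.

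In the H3K9 group, *KYP* (AT5G13960) had 6.03, 7.19 and 8.42 FPKM in the wild type and 7.02, 9.40 and 9.49 FPKM in *brat1*, and was higher in 3 of 3 pairs, with a log2 difference of 0.26 ± 0.155 (SE; adjusted p of 1.0 and, with the replicate block, 0.189, limma). *IBM1* (AT3G07610) had 9.43, 10.88 and 10.99 FPKM in the wild type and 10.8, 13.0 and 13.1 FPKM in *nrpe1*. It was higher in 3 of 3 pairs, and its groups overlapped, with a log2 difference of 0.23 ± 0.132 (SE; adjusted p of 1.0, and 0.155 with the block, limma). Neither gene passed the test. A shared sign in 3 of 3 pairs was not particular to the genes for which it is given. *MET1*, *CMT3* and *DDM1* had it in *brat1*, and *RDR2*, *DRD1* and *SUVH9* in *nrpe1*, against the wild type. For *NRPE1*, *FDM2* and *CLSY2* a shared sign follows from groups of libraries that did not overlap. Among the cofactors, log2 differences lay between -0.18 and 0.0828 in *brat1* and between -0.13 and 0.15 in *nrpe1* against the wild type. *DDM1* (AT5G66750), the remodeller needed for methylation of heterochromatin, had 8.33 ± 0.841 FPKM in the wild type, 8.83 ± 0.910 FPKM in *brat1*, 7.91 ± 0.554 FPKM in *nrpe1* and 8.40 ± 0.809 FPKM in *brat1nrpe1*.

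Leaving out replicate 1 of every genotype brought many genes of the whole table under an adjusted p of 0.05 in limma, 3.14% of all tested genes in *brat1* and 7.32% in *nrpe1* against the wild type, 10.8% in *brat1nrpe1* against *nrpe1* and 4.55% in *brat1nrpe1* against *brat1*. The silencing genes called numbered 1, 2, 2 and 2 in that order, which is near or below these shares and is no result about the machinery. Beside *FDM2* and *NRPE1* they were *AGO4*, *RDM1* and *MORC6*, 1 each in the last 3 comparisons. *AGO4* had 36.5, 26.3 and 26.2 FPKM in the wild type and 36.1, 21.6 and 23.1 FPKM in *nrpe1*, and its log2 difference in replicates 2 and 3 was -0.23 ± 0.0541 (SE; adjusted p = 0.0382, limma). *RDM1* (AT3G22680), of the DDR complex, had 15.3, 20.8 and 22.4 FPKM in *nrpe1* and 14.0, 18.2 and 17.7 FPKM in *brat1nrpe1*, and its log2 difference in replicates 2 and 3 was -0.26 ± 0.0679 (adjusted p = 0.0424). *MORC6* (AT1G19100), an ATPase of the GHKL type, had 5.57, 6.55 and 6.30 FPKM in *brat1* and 6.02, 8.26 and 8.10 FPKM in *brat1nrpe1*, and its log2 difference was 0.34 ± 0.0768 (adjusted p = 0.0421). With all libraries, the adjusted p of each was 1.0, and 0.247, 0.0948 and 0.166 with the replicate block (limma). The signs of pairs 2 and 3 follow from the choice of these genes. Pair 1, which those fits left out, had log2 differences of -0.0169 for *AGO4*, -0.124 for *RDM1* and 0.111 for *MORC6*.

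Of 32 other genes of silencing and small RNA pathways, among them *DCL4*, *RDR6*, *AGO1* and *VIM3*, 31 were tested. None had an adjusted p under 0.05 in limma or was past the limits of the study in any comparison. At an unadjusted p under 0.05 there were 1 in *brat1* (2.95% of all genes) and 2 in *nrpe1* (3.04%) against the wild type. There were 0 in *brat1nrpe1* against *nrpe1* (4.25%) and 0 against *brat1* (2.21%). With the replicate block 1 gene was called, in *nrpe1* against the wild type (1.29% of all genes). *DCL4*, which makes trans-acting siRNAs, had 5.75, 6.49 and 6.32 FPKM in the wild type and 7.03, 7.97 and 8.21 FPKM in *nrpe1*. Its groups did not overlap, as for 5.69% of all genes in that comparison. The log2 difference of *DCL4* was 0.32 ± 0.104 (SE), with an adjusted p of 1.0 without and 0.0336 with the block (limma).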

How the data were processed

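The authors sequenced poly-A RNA, mapped reads to TAIR10 with TopHat2 (2.0.12 in the submitters' processing notes), kept uniquely mapped reads and deposited FPKM computed with Cufflinks (2.0.1), which depends on transcript models and holds no counts. Genotype and replicate come from the labels. Here log2(FPKM + 0.1) of 22645 genes with a mean of at least 0.1 FPKM was fitted with limma 3.58.1 in R 4.3.3, with 4 genotype means over 12 libraries, trended moderation, two-sided p-values and Benjamini-Hochberg adjustment over all tested genes at 0.05. The model was tested on simulated data.

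Members and lists were chosen with earlier results of these data known. Genes named are the disrupted genes, members called in a comparison, the highest and lowest of each role and members whose groups do not overlap. The other genes described were chosen after their values were seen. Libraries of the same number deviated together from their genotype means (r of 0.593 to 0.840 over 18 pairs). Libraries of different numbers had r of -0.728 to 0.619 over 36 pairs, so the 2 ranges overlap. The numbers of the labels were taken to pair the libraries. Replicate 1 stood apart, and whether replicates 2 and 3 are also matched by number was not tested. Alternatives were the replicate block, other pseudocounts and filters, fits of fewer libraries, no trend and rescaling. Positions, windows and transcript matches (BLAST 2.17.0) are from TAIR10.1 (RefSeq), not the authors' build file. Python 3.11.15 with numpy 2.4.6, pandas 2.3.3 and matplotlib 3.10.9 was used elsewhere. 1 upstream window is not reported here.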

Additional observations from a re-analysis of the deposited data

How the results depend on the processing

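The number of silencing genes with an adjusted p under 0.05 in limma was small in each comparison, so 1 gene moves it. In *brat1* against the wild type the count of 1 became 0 in a fit of the 2 genotypes alone and with the mean of replicates 2 and 3 as 1 sample, and was 0 to 1 when libraries were left out. In *nrpe1* against the wild type and in *brat1nrpe1* against *brat1* the count of 1 became 0 with that mean and ranged from 0 to 2 when libraries were left out. The count of 2 was found without replicate 1, where 7.32% and 4.55% of all tested genes were called. In *brat1nrpe1* against *nrpe1* the count of 0 became 1 with a pseudocount of 1, without a trend, after rescaling to the same 75th percentile, with the replicate block, and with the block without replicate 1 (chosen after seeing the data), and ranged from 0 to 2 when libraries were left out, with 2 again without replicate 1 (10.8% of all tested genes). Its count past the limits of the study, 1, became 0 with a pseudocount of 1. The cause of these changes was not tested. Where the replicate number paired the libraries as a block, the counts of 1 in the other comparisons were 1 again. The log2 differences of *FDM2* and *BRAT1* for *brat1*, and of *NRPE1* for *nrpe1*, in both backgrounds each, kept their sign in 25 alternatives, and the other log2 differences given were not recomputed under all of them. Rescaling moved libraries by -0.0435 to 0.0494 on the log2 scale.

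FPKM holds no counts, so genes such as *DRM1*, *AGO9* and *CLSY3* have an unknown counting error.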
